A study of Danio rerio with 12 samples.

Results

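The nucleosome remodeling and deacetylase (NuRD) complex was followed subunit by subunit at the transcript level, through the genes *rbbp4*, *hdac1*, *mbd3a*, *mbd3b*, *mta2*, *mta3*, *chd3*, *chd4a*, *chd4b* and *gatad2ab*. Each subunit was found by its gene name in the table of raw counts, and the 10 genes made up 10 of the 32266 genes in that table. None of the 10 symbols had more than 1 identifier. The samples were heads of 5 dpf zebrafish larvae of the WIK strain, dissected and pooled 5 to a sample, from homozygous *rb1Δ7/Δ7* mutants, labeled *rb1-/-*, and from their +/+ wild-type siblings. There were 3 pools of each genotype and both came from a cross of heterozygous parents. The *rb1Δ7* allele carries a small frameshift deletion in *rb1*, the zebrafish homolog of the retinoblastoma tumor suppressor, and homozygotes die as larvae. A pool mixes 5 animals and every tissue of the head, and the measurement is of transcripts, so that neither the cell type of a subunit transcript nor the amount of assembled complex was measured.

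NuRD joins an ATP-dependent nucleosome remodeler and a histone deacetylase in the same complex, which is used mostly to repress or tune transcription at enhancers and promoters. The deacetylase module holds HDAC1 or HDAC2, the MTA scaffold proteins to which the deacetylase binds, and the WD40-repeat proteins RBBP4 and RBBP7, which bind histone tails. The remodeling module holds a CHD helicase, and MBD2 or MBD3 together with GATAD2 proteins links the modules. In the nervous system of mice, alternative CHD subunits are used at different stages of cortical development. RBBP4 was first described as a protein that binds the retinoblastoma protein, and it also belongs to several other chromatin complexes.

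The libraries held 45158621 to 47700950 counts on genes in mutant pools and 41065256 to 46621056 in wild-type pools. The targeted gene, *rb1*, was at 9.52 to 11.6 CPM (counts scaled to a common library size) in mutant pools and at 18.4 to 26.8 CPM in wild-type pools, a log2 difference of -1.09 ± 0.16 (standard error, SE; edgeR adjusted p = 0.0121), and its adjusted p was 0.0585 without wild-type pool 2. Markers of a larval head were present in every pool, and none of the markers listed for neurons, radial glia, photoreceptors, lens, muscle or cartilage was at 0. Of all genes tested, 3.82% were higher and 2.17% lower in mutants at an edgeR adjusted p of 0.05. In 16.1% every mutant pool was above every wild-type pool. Markers of cycling cells moved with genotype. All 14 were higher in every mutant pool than in every wild-type pool, 9 of them (*pcna*, *mki67*, *top2a*, *mcm5*, *mcm7*, *cdk1*, *ccna2*, *ccnb1* and *aurkb*) passed an edgeR adjusted p of 0.05, and 14 passed it with the pool number as a block. The count was 5 without wild-type pool 2 and 14 without wild-type pool 1. Their summed level was 1779 to 1986 CPM in mutants and 683 to 1119 CPM in wild type. None of 9 neuron markers passed in edgeR or DESeq2, none had an unadjusted p under 0.05, and their sum was 2625 to 3423 CPM in mutants and 2876 to 3171 CPM in wild type. Among photoreceptor markers, *rho* and *gnat1* of 7 genes were lower in mutants by this test, with adjusted p of up to 0.0891 and 0.104 when 1 pool was left out. Of 3 erythroid markers, *alas2* was higher (log2 1.11, edgeR adjusted p = 0.0131, up to 0.0743 when 1 pool was left out). With the block 2 of 3 passed and in DESeq2 3 of 3, and their sum was 190.1 to 385 CPM in mutants and 148 to 191 CPM in wild type. Of 5 microglia and macrophage markers none passed in edgeR, and 1 had an unadjusted p under 0.05. It was *mpeg1.1* (log2 0.66, edgeR adjusted p = 0.0641), which passed with the block (0.0224) and in DESeq2 (0.0110). Of the 5, 3 had a log2 difference above 0, with a median of 0.06 and a lowest value of -0.41. Their sum overlapped, at 412 to 650 CPM in mutants and 497 to 623 CPM in wild type. Of 6 radial glia markers none passed in edgeR, 2 were lower at an unadjusted edgeR p under 0.05, and 1 was lower in DESeq2. A log2 difference above 0 was found for 2 of the 6. Their sum was 1033 to 1071 CPM in mutants and 1078 to 1212 CPM in wild type, without overlap. Of 5 muscle markers none passed in edgeR, 1 was lower in DESeq2, 1 had a log2 difference above 0, and the sums overlapped. The part of these differences in cell content in the changes of the NuRD subunits was not tested. More cells that express a subunit and more transcript in each cell cannot be told apart in pooled heads.

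In wild-type heads, transcripts of all the core modules were present at levels from 7.58 to 83.3 FPKM (CPM divided by exon length in kilobases, means of 3 pools), a scale on which genes of different length can be compared. *hdac1* (ENSDARG00000015427), the deacetylase, was the most abundant at 83.3 ± 5.89 FPKM (SD, n = 3), and its lowest wild-type pool, at 77.6 FPKM, stood above every wild-type pool of any other subunit. *chd4b* (ENSDARG00000025789), a remodeler helicase, followed at 41.6 ± 1.83 FPKM and lay above *mbd3b* (ENSDARG00000042029) at 37.2 ± 1.66 FPKM without overlap of the pools. *rbbp4* (ENSDARG00000029058), at 31.5 ± 5.92 FPKM, came next, but its pools spanned 26.3 to 37.9 FPKM and overlapped with those of *mbd3b*, *mbd3a*, *mta2* and *chd4a*. The order among these middle subunits was therefore not resolved around *rbbp4*, although the pools of *mta2* (ENSDARG00000013031; 28.2 ± 0.318 FPKM) did lie above those of *chd4a* (ENSDARG00000063535; 26.0 ± 0.336 FPKM). *mbd3a* (ENSDARG00000061774) was at 29.0 ± 1.57 FPKM, which overlapped with *mta2*. Lower in the order were *mta3* (ENSDARG00000054903) at 16.8 ± 0.933 FPKM, *chd3* (ENSDARG00000021405) at 11.5 ± 0.702 FPKM and *gatad2ab* (ENSDARG00000006192) at 7.58 ± 0.360 FPKM. The pools of these last members overlapped with no other of the 10.

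In *rb1/rb1* mutant heads *rbbp4* was at 76.7 ± 4.05 FPKM. It held rank 2 among the 10 members and 6 further NuRD genes in the table, where it had held rank 4 in wild type, and its pools then overlapped with those of no other subunit. *hdac1* stayed first at 113 ± 2.56 FPKM, with pools from 110.0 to 115 FPKM. *chd4a* held rank 5 at 41.8 ± 6.97 FPKM, against rank 7 in wild type. However, its mutant pools, from 34.0 to 47.4 FPKM, overlapped with those of *chd4b*, *mbd3b*, *mta2*, *mbd3a* and, of the further genes, *rbb4l*. The least abundant members stayed *chd3* and *gatad2ab*, at 11.9 ± 3.35 and 9.37 ± 0.423 FPKM.

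**Figure D1:**
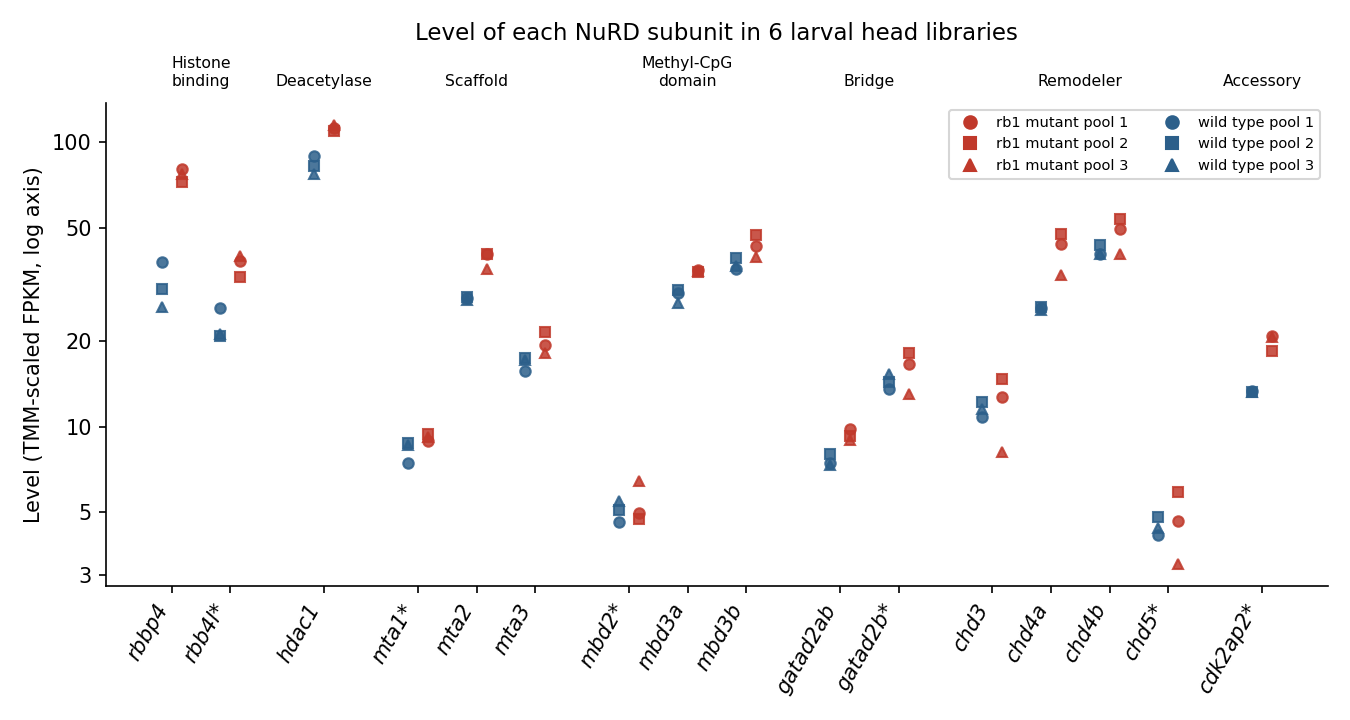
Level of each NuRD subunit in each pool, in FPKM on a log axis, with 1 point per pool and genotype shown by color; an asterisk marks subunits outside the 10 members. *hdac1* was the highest in both genotypes, and the 3 mutant pools of *rbbp4* at 72.5 to 80.5 FPKM lay above the 3 wild-type pools at 26.3 to 37.9 FPKM.

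All 10 members had a fitted mutant to wild-type difference above 0, where 48.2% of the 22753 genes tested did. The median log2 difference of the 10 was 0.29, against -0.01 over all genes tested. A subunit is said to have risen where its edgeR quasi-likelihood test passed an adjusted p of 0.05. *rbbp4*, *hdac1*, *mta2* and *chd4a* rose, 4 of 10, where 3.82% of genes tested did, and none of the members fell, where 2.17% of genes tested did. An unadjusted p under 0.05 was found for 7 of 10, where 12.8% of genes tested were higher by that measure. The same 4 members passed in DESeq2, which called 6.07% of the genes it tested higher, and with the pool number as a block, which called 5.10%. *mbd3a*, *mbd3b*, *mta3*, *chd3*, *chd4b* and *gatad2ab* did not pass. The study's threshold was an adjusted p of 0.01 with at least a 1.5-fold change, which the study applied to DESeq2. Applied to edgeR here, it called only *rbbp4*, and 0.897% of genes tested were called higher. In DESeq2 *chd4a* passed it as well (log2 0.68, DESeq2 adjusted p = 0.00033). In 8 of 10 members every mutant pool was above every wild-type pool, as for 16.1% of genes tested, and *chd3* and *chd4b* were the exceptions. The calls of *hdac1*, *mta2* and *chd4a* depended on which pools were kept. Of the 4 members only *rbbp4* still passed without mutant pool 1 or without any 1 of the wild-type pools. *rbbp4* and *chd4a* passed without mutant pool 2, and all 4 passed without mutant pool 3. Over all genes, 870 were higher at an adjusted p of 0.05. Without mutant pools 1, 2 and 3 the number was 183, 816 and 841. Without wild-type pools 1, 2 and 3 it was 669, 155 and 311. Fewer calls in such fits were thus not particular to the members.

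**Figure D2:**
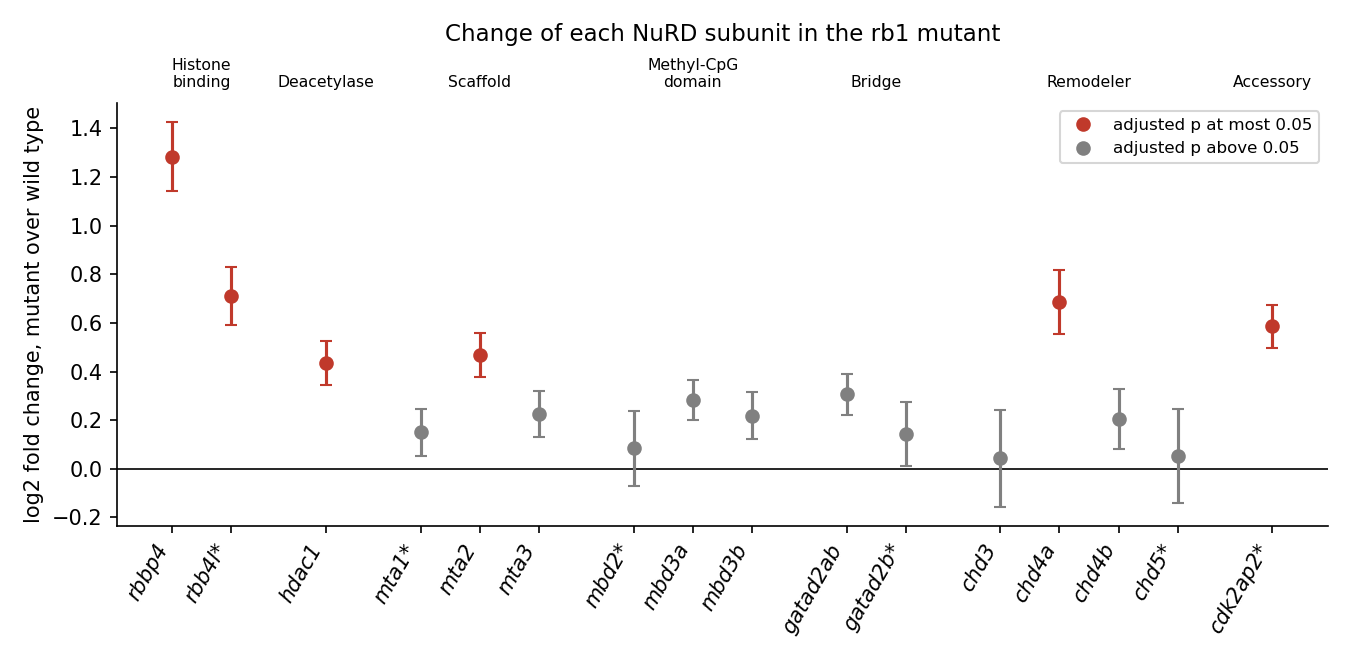
Fitted log2 difference of each NuRD subunit, mutant minus wild type, with bars for the standard error of the edgeR fit on 3 against 3 pools, red where the adjusted p was at most 0.05; an asterisk marks subunits outside the 10 members. The differences ran from 0.04 for *chd3* to 1.28 for *rbbp4*, and 16 of 16 lay above 0.

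Of the histone-binding subunits, *rbbp4* showed the largest change of the complex, whereas *rbb4l* changed about as much as *chd4a*. *rbbp4* was at 179, 161 and 171 CPM in mutant pools 1 to 3 and at 84.2, 67.4 and 58.3 CPM in wild-type pools 1 to 3. The lowest mutant pool was well above the highest wild-type pool, and wild-type pool 1 was the highest of its group. The difference was 2.43-fold, or 1.28 ± 0.14 on the log2 scale (SE; edgeR adjusted p = 0.00424), a larger change than that of 99.2% of genes tested. Without mutant pool 1, mutant pool 3, wild-type pool 2 or wild-type pool 3 the log2 differences were 1.25, 1.28, 1.26 and 1.17. The edgeR adjusted p was 0.0277, 0.01002, 0.0388 and 0.0188, so that 4 of the 6 edgeR fits that leave out a pool missed the study's threshold. Over all genes, calls at that threshold in either direction numbered 269 with all pools. They numbered 35, 219, 3 and 1 in these 4 fits, so the loss of calls was not particular to *rbbp4*. DESeq2, to which the study applied that threshold, gave an adjusted p of 2.9e-13 with all pools. It was not run with a pool left out. Its paralog *rbb4l* (ENSDARG00000015208), the counterpart of mammalian RBBP7, was at 79.1, 69.8 and 82.3 CPM in mutant pools and at 54.2, 43.3 and 43.9 CPM in wild-type pools. Here too the groups did not overlap and wild-type pool 1 was the highest of its group. *rbb4l* rose 1.64-fold (log2 0.71 ± 0.12; edgeR adjusted p = 0.0182), but the adjusted p was 0.0916, 0.106 and 0.0733 without mutant pool 1, wild-type pool 2 or wild-type pool 3.

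The profile of *rbbp4* over the 6 libraries was close to those of *e2f3*, si:ch211-156b7.4, *ssrp1a* and *atad5a*, which were among the 5 most like it of 12583 genes with a mean of at least 10 CPM. Likeness was the root mean square difference of log2 CPM, each gene centred on its own mean, and it was 0.07, 0.07, 0.07 and 0.08 for these genes, given as a description without a test. *e2f3* encodes a transcription factor of the cell cycle that is bound by retinoblastoma proteins, *ssrp1a* a subunit of the histone chaperone FACT, and *atad5a* a factor that unloads PCNA from DNA. Profiles were not scaled, so this distance depends largely on the size of the genotype difference. The genes named here differed by 1.23 to 1.32 on the log2 scale, against 1.28 for *rbbp4*. The order of the NuRD genes, which came further down, therefore largely restates their single changes. *rbb4l* ranked 244th with a difference of 0.31, *chd4a* 397th, *hdac1* 618th and *mta2* 656th, while *chd3* ranked 7752nd with a difference of 0.73.

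*hdac1*, the catalytic deacetylase, was at 322, 314 and 329 CPM in mutant pools and at 255, 236 and 222 CPM in wild-type pools. The groups did not overlap, the mutant pools lay close together and wild-type pool 1 was again the highest of its group. *hdac1* rose 1.35-fold (log2 0.44 ± 0.09; edgeR adjusted p = 0.0369), more than 91.0% of genes tested. The log2 difference stayed between 0.39 and 0.49 when any 1 pool was left out. The edgeR adjusted p was 0.166 and 0.0553 without mutant pools 1 and 2, and 0.0416 without mutant pool 3. Without wild-type pools 1, 2 and 3 it was 0.0558, 0.176 and 0.12. DESeq2 gave an adjusted p of 0.0012 with all pools.

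Of the scaffold subunits, *mta2* changed most. It was at 187, 186 and 165 CPM in mutant pools and at 129.9, 131 and 128 CPM in wild-type pools. Mutant pool 3 was the lowest of its group and was still above all wild-type pools, which were nearly equal. *mta2* rose 1.38-fold (log2 0.47 ± 0.09; edgeR adjusted p = 0.0280). Without mutant pools 1 and 2 its edgeR adjusted p was 0.15 and 0.0542, and without mutant pool 3 it was 0.0159. Without wild-type pools 1, 2 and 3 it was 0.0733, 0.139 and 0.096. DESeq2 gave an adjusted p of 0.00062 with all pools. *mta3* was at 52.1, 57.7 and 48.9 CPM in mutant pools and at 42.4, 47.0 and 46.3 CPM in wild-type pools. These groups did not overlap, but the log2 difference of 0.23 ± 0.10 did not pass (edgeR adjusted p = 0.209). *mta1*, a scaffold paralog outside the 10 members, differed by 0.15 ± 0.09 on the log2 scale (edgeR adjusted p = 0.399).

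Neither MBD3 gene, whose products link the deacetylase and remodeling modules, passed the test. *mbd3a* was at 66.0, 65.3 and 65.4 CPM in mutant pools and at 54.9, 56.3 and 50.7 CPM in wild-type pools, a log2 difference of 0.28 ± 0.08 (edgeR adjusted p = 0.0883). Its mutant pools varied least of all the subunits, with a coefficient of variation of 0.611%, and none overlapped with wild type. *mbd3b* was at 87.8, 95.9 and 80.4 CPM in mutant pools and at 72.9, 79.4 and 74.6 CPM in wild-type pools. Its lowest mutant pool was just above its highest wild-type pool, and the log2 difference was 0.22 ± 0.10 (edgeR adjusted p = 0.226). *mbd2*, the paralog that binds methylated DNA in mammals, was the least abundant of the family and differed by 0.08 ± 0.15 on the log2 scale (edgeR adjusted p = 0.800).

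*gatad2ab*, which encodes a zinc-finger protein of the bridge between the modules, was at 44.8, 42.3 and 41.0 CPM in mutant pools and at 33.9, 36.4 and 33.3 CPM in wild-type pools. The groups did not overlap. The log2 difference of 0.31 ± 0.08 (edgeR adjusted p = 0.0782) was close to that of *mbd3a* and did not pass. *gatad2b*, its paralog, was at 47.4, 51.9 and 37.1 CPM in mutant pools and at 38.6, 41.1 and 43.8 CPM in wild-type pools. Mutant pool 3 was below every wild-type pool, and the log2 difference was 0.14 ± 0.13 (edgeR adjusted p = 0.571).

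The remodeler helicases, which slide nucleosomes, had the widest spread of changes among paralogs, from 0.04 to 0.69 on the log2 scale. *chd4a* was at 296, 319 and 229 CPM in mutant pools and at 175, 177 and 173 CPM in wild-type pools. All mutant pools were above all wild-type pools, and mutant pool 3 was well below the other two. *chd4a* rose 1.61-fold (log2 0.69 ± 0.13; edgeR adjusted p = 0.0277), more than 96.0% of genes tested. Its adjusted p was 0.13 without mutant pool 1, 0.072, 0.127 and 0.0981 without wild-type pools 1, 2 and 3, and 0.00509 without mutant pool 3. *chd4b* was at 364, 397 and 297 CPM in mutant pools and at 298, 322 and 299 CPM in wild-type pools. Mutant pool 3 was at the level of wild type, so that the groups overlapped, and the log2 difference was 0.21 ± 0.12 (edgeR adjusted p = 0.365). *chd3* was at 112, 128 and 71.2 CPM in mutant pools and at 94.3, 107 and 101 CPM in wild-type pools. Mutant pool 3 was the lowest of all 6 libraries for *chd3*, and the log2 difference of 0.04 ± 0.20 (edgeR adjusted p = 0.927) turned to -0.14 without mutant pool 2, to -0.01 without mutant pool 1 and to -0.00 without wild-type pool 1. *chd5*, a helicase found mainly in neurons in mammals, had the lowest mean FPKM of the NuRD genes, although its pools overlapped with those of *mbd2* in both genotypes. It differed by 0.05 ± 0.19 on the log2 scale (edgeR adjusted p = 0.905), which turned to -0.16 without mutant pool 2.

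Of 10 further NuRD genes listed, 6 were in the table by symbol, and these were *rbb4l*, *mta1*, *mbd2*, *gatad2b*, *chd5* and *cdk2ap2*. By the test at an adjusted p of 0.05, 2 of the 6 rose and none fell, where 3.82% and 2.17% of genes tested did. The median log2 difference of the 6 was 0.15. Besides *rbb4l*, *cdk2ap2* (ENSDARG00000103145), a small accessory subunit, rose by 0.59 ± 0.09 on the log2 scale (edgeR adjusted p = 0.0125). It was at 32.8, 29.2 and 32.6 CPM in mutant pools and at 21.1, 21.0 and 21.0 CPM in wild-type pools, with a wide gap between the groups. Without mutant pool 1 or wild-type pool 2 its adjusted p was 0.0868 and 0.0833.

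The ratio of *rbbp4* to each other member was computed within each library from FPKM, so that it does not depend on the scaling between libraries. Against all 9 partners the ratio was higher in every mutant pool than in every wild-type pool, but so was the ratio of *rbbp4* to 94.4% of all other genes tested, so the count is not particular to the partners. Each 2-sided exact permutation test gave p = 0.1, the smallest that 3 against 3 pools allow, and 0.1 after Benjamini-Hochberg adjustment over 9 ratios, so none could reach 0.05. That test ignored the pool numbers. An exact sign-flip test on same-numbered pairs gave p = 0.25 for each ratio, the smallest that 3 pairs allow. In wild-type pools there were 0.375 *rbbp4* transcripts for each *hdac1* transcript (geometric mean, per length), and in mutants 0.681. For *chd4b* the ratio was 0.750 in wild type and 1.61 in mutants, and for *gatad2ab* 4.11 and 8.19.

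The gain of *rbbp4* on its partners was unequal. Each gain is the mean log2 change of *rbbp4* less that of the partner, so the order of the gains restates the changes of the single genes. The smallest log2 difference was against *chd4a*, at 0.63, where the ratio was 0.89 ± 0.286 in mutants and 0.26 ± 0.258 in wild type (log2 ratios, SD, n = 3). Against *mta2* it was 0.83, from 0.14 ± 0.259 to 0.98 ± 0.131, and against *hdac1* 0.86. These are the partners that rose. The 6 members that did not pass the test gave larger differences, from 0.99 for *gatad2ab* and 1.02 for *mbd3a* to 1.08 for *mbd3b* and 1.30 for *chd3*. The ratio to *chd3* varied most between mutant pools, at 2.74 ± 0.475, and the ratio to *hdac1* least, at -0.55 ± 0.0621.

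**Figure D3:**
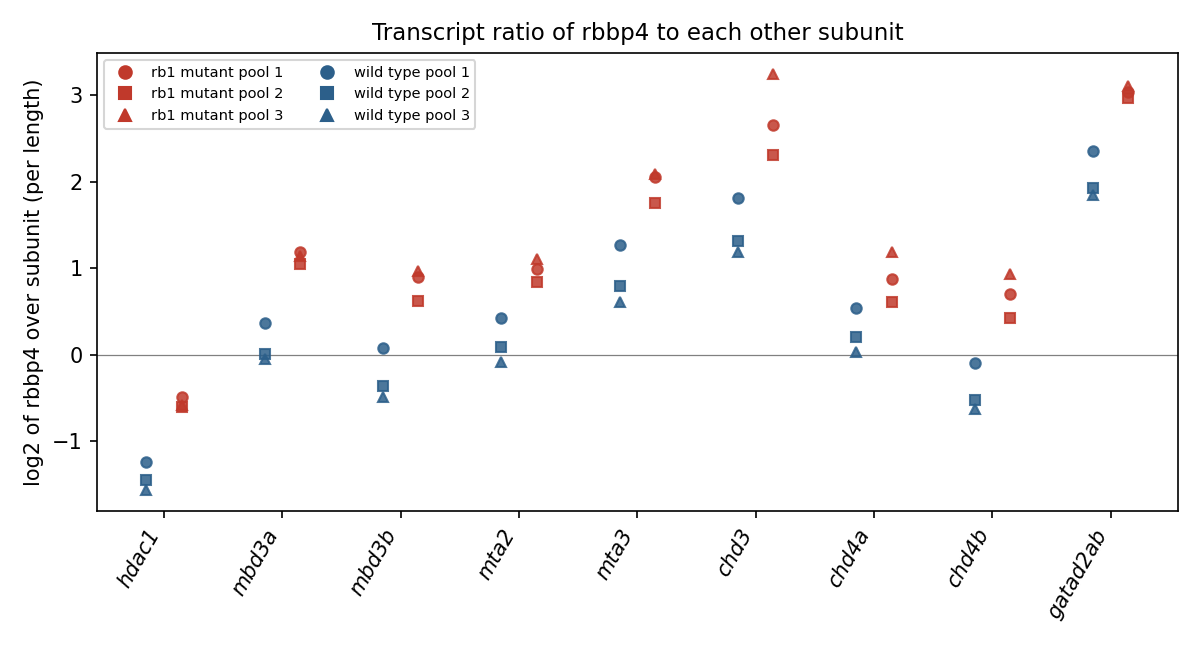
Log2 ratio of *rbbp4* to each of the other 9 members within each pool, from FPKM, with 1 point per pool and color by genotype. In all 9 ratios the 3 mutant points lay above the 3 wild-type points, by a mean of 0.63 for *chd4a* to 1.30 for *chd3*.

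Summing paralogs gave the transcript level of each subunit family. Since *rbbp4* and *hdac1* also serve other chromatin complexes, these levels are not the supply to NuRD alone. The histone-binding family, *rbbp4* with *rbb4l*, summed to 114 ± 6.79 FPKM in mutants and 54.2 ± 8.73 FPKM in wild type. The scaffold family was at 67.9 ± 4.07 and 53.3 ± 1.69 FPKM, and the methyl-CpG-binding domain family at 83.9 ± 2.96 and 71.2 ± 2.75 FPKM, all without overlap of the genotypes. The remodeler family, at 106 ± 18.5 and 83.5 ± 3.00 FPKM, and the GATAD2 family, at 25.3 ± 2.91 and 22.0 ± 0.910 FPKM, overlapped. Set against *hdac1* in the same library, the histone-binding family was at 1.01 ± 0.0447 in mutants and 0.649 ± 0.0590 in wild type, without overlap. The other families overlapped between genotypes on this ratio, with 0.746 and 0.858 for the methyl-CpG-binding domain family, 0.604 and 0.643 for the scaffolds, 0.946 and 1.01 for the remodelers, and 0.225 and 0.266 for GATAD2 in mutants and wild type. These sums were not tested.

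The share of each paralog in the transcripts of its family was compared between genotypes, and none of the 14 shares passed. The genotypes did not overlap in 8 of the 14, each with an exact permutation p of 0.1 and 0.175 after adjustment over the 14 shares. Shares of a family sum to 100%, so these 8 are not independent, and those of *rbbp4* and *rbb4l* are the same measurement. The share of *chd4a* among remodeler transcripts was 39.7%, 38.9% and 39.6% in mutant pools and 32.0%, 30.2% and 31.2% in wild-type pools. This share was nearly even among mutant pools, mutant pool 3 included, although the level of *chd4a* was not. The shares of the other helicases were lower in mutants, at 45.3% ± 1.53 and 49.8% ± 0.415 for *chd4b*, 11.01% ± 1.34 and 13.8% ± 0.451 for *chd3*, and 4.29% ± 0.501 and 5.32% ± 0.203 for *chd5* (mutant, then wild type; SD, n = 3). *rbbp4* made up 67.4% ± 1.18 of the histone-binding family in mutants and 57.9% ± 2.22 in wild type, and *rbb4l* the rest.

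Among scaffolds the share of *mta2* was 57.5% ± 1.26 in mutants and 53.0% ± 1.71 in wild type, and that of *mta3* was 28.9% ± 1.01 and 31.5% ± 0.799, both without overlap. The share of *mta1* overlapped per length (exact permutation p = 0.2), but not in counts without length scaling (exact permutation p = 0.1). The methyl-CpG-binding domain family kept its make-up within the spread of the pools, with *mbd3a* at 42.0% ± 1.53 in mutants and 40.7% ± 1.47 in wild type and *mbd3b* at 51.5% ± 2.74 and 52.2% ± 0.863. The share of *gatad2ab* was 37.3% ± 3.54 in mutants and 34.5% ± 1.92 in wild type, and the groups overlapped.

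**Figure D4:**
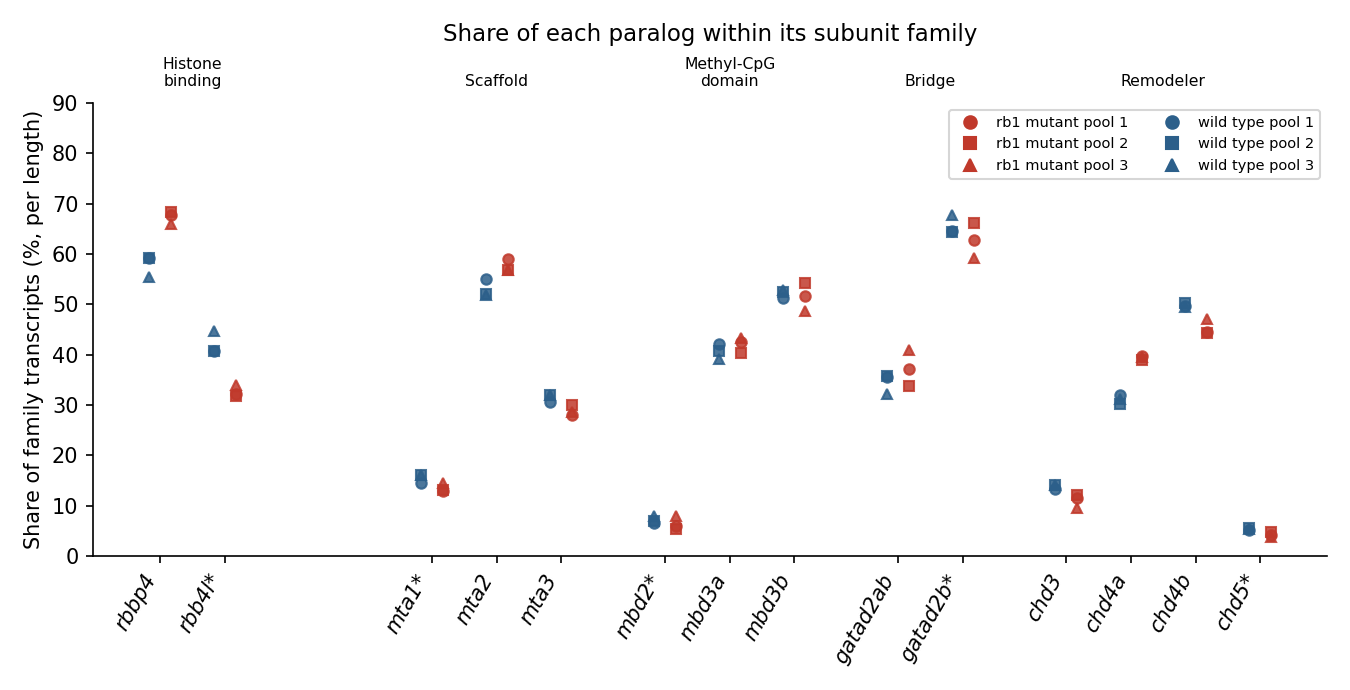
Share of each paralog in the summed transcripts of its subunit family, in percent and per length, with 1 point per pool; an asterisk marks subunits outside the 10 members. The *chd4a* points lay between 38.9% and 39.7% in mutants and between 30.2% and 32.0% in wild type, while the *mbd3a* and *mbd3b* points of the genotypes overlapped.

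The subunits varied between mutant pools in different ways. Of the 16 subunits, 9 were lowest among mutant pools in pool 3. The share of all genes with this order was not computed, so the count cannot be read as particular to the subunits. In *mta2*, *mta3*, *mbd3b* and *gatad2ab* the coefficient of variation over mutant pools was 4.52% to 8.83%, and in *chd3*, *chd4a*, *chd4b*, *chd5* and *gatad2b* it was 28.3%, 16.7%, 14.4%, 28.1% and 16.7%. In 4 of the 9, *chd3*, *chd4b*, *chd5* and *gatad2b*, mutant pool 3 was below every wild-type pool. For *chd4b* this was close to a tie, at 297.4 CPM against 297.6 CPM in wild-type pool 1. The summed neuron markers were also lowest in mutant pool 3, at 2625 CPM against 3088 and 3423 CPM in mutant pools 1 and 2. As a percentage of that sum, *chd4b* was at 11.8%, 11.6% and 11.3% in mutant pools and at 10.3%, 10.1% and 9.62% in wild-type pools, so that on this scale its groups no longer overlapped. *chd3* was at 3.61%, 3.75% and 2.71% in mutant pools and at 3.28%, 3.36% and 3.25% in wild-type pools, and still overlapped. The scale moved genes both ways. The groups of *gatad2b* also ceased to overlap on it, whereas those of *mbd3a* and *mta1*, apart in CPM, came to overlap.

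*rbbp4* and the summed cycling-cell markers ranked the pools in the same order within each genotype, with pool 1 the highest in both. As a percentage of the summed cycling markers, *rbbp4* was at 8.998%, 9.04% and 9.35% in mutant pools and at 7.52%, 7.98% and 8.53% in wild-type pools, and the groups did not overlap. *hdac1* went the other way on this scale, at 16.2%, 17.7% and 17.9% in mutant pools against 22.8%, 28.0% and 32.5% in wild-type pools. *mta2* was likewise lower, at 9.62% ± 0.743 in mutants and 15.3% ± 3.57 in wild type, and *chd4a*, at 15.1% ± 2.73 and 20.6% ± 4.79, overlapped. By the means, the summed cycling markers differed between genotypes by more than each member other than *rbbp4*. The sum depends on the markers chosen and on their levels. Single markers differed by 0.77 (*mcm7*) to 1.56 (*cdk1*) on the log2 scale, and *rbbp4*, at 1.28, lay within that range. It was thus not above every cycling marker. These percentages are descriptions and were not tested.

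**Figure D5:**
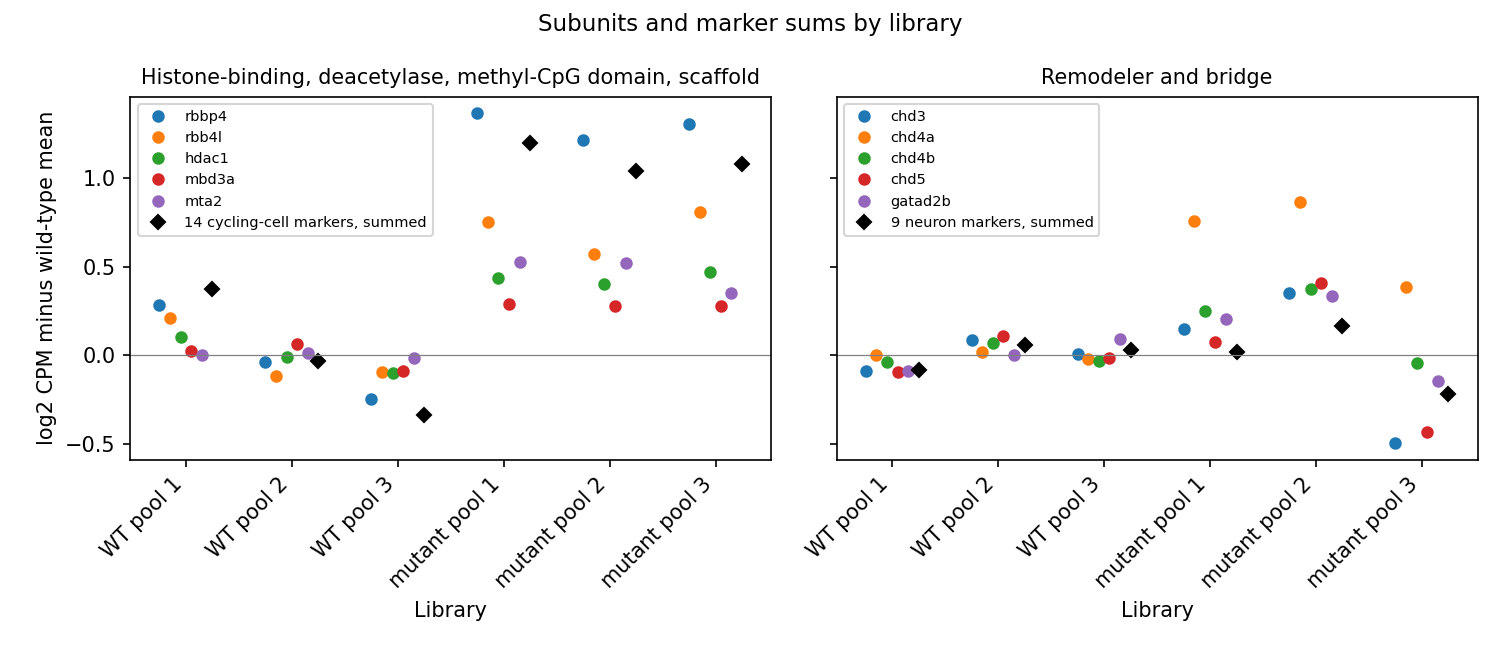
Log2 CPM of subunits in each pool, relative to the wild-type mean of each gene, with diamonds for the summed cycling-cell markers on the left and the summed neuron markers on the right. *rbbp4* and the cycling markers (1779 to 1986 CPM in mutants, 683 to 1119 CPM in wild type) were the highest points of every mutant pool on the left. On the right *chd3*, *chd5*, *gatad2b* and the summed neuron markers of mutant pool 3 lay below every wild-type pool, and *chd4b* was close to a tie.

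*rbbp4* and *hdac1* also serve other chromatin complexes, whose further subunits were compared in the same edgeR fit. In that fit 3.82% of all genes tested rose and 2.17% fell. Both subunits of CAF-1, the histone chaperone that deposits new histones behind the replication fork and contains RBBP4, rose, by 1.22 for *chaf1a* and 1.29 for *chaf1b* on the log2 scale (adjusted p = 0.0176 and 0.0337). *hat1*, the acetyltransferase of new histone H4 that works with RBBP7, rose by 0.87 (adjusted p = 0.00737). In PRC2, which methylates histone H3 and contains RBBP4, 4 of 11 genes rose, namely the methyltransferase *ezh2* by 0.76, *eed* by 0.57, *suz12a* by 0.61 and *mtf2* by 0.61, with adjusted p of 0.0213, 0.0128, 0.0350 and 0.0379. The lowest was the alternative methyltransferase *ezh1* at -0.55 ± 0.19, which did not pass (adjusted p = 0.131; 0.0386 with the pool number as a block), and the median of the 11 was 0.12.

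In Sin3, another HDAC1 complex, 1 of 14 genes found rose, where 3.82% of genes tested did. It was *ing2*, by 0.38 (edgeR adjusted p = 0.0438). The largest and smallest differences were 0.46 for *sap130b* and -0.09 for *sin3aa*, neither of which passed (edgeR adjusted p = 0.0649 and 0.715). The median of the 14 was 0.21. DESeq2 called 3 of them higher, where it called 6.07% of the genes it tested higher. In CoREST, a further HDAC1 complex that carries a histone demethylase, 0 of 8 genes passed in edgeR or DESeq2. There 3 were higher at an unadjusted edgeR p under 0.05, where 12.8% of genes tested were. *rcor2* was highest at 0.45, *phf21aa* lowest at 0.12, and the median was 0.16. MuvB, which contains RBBP4 and binds retinoblastoma-family proteins in the DREAM complex, had 2 of 4 genes higher, *lin9* by 0.54 and *lin37* by 0.64, and a median of 0.59. *lin52*, at 0.67, and *lin54*, at 0.31, did not pass. With the pool number as a block *lin52* passed as well (edgeR adjusted p = 0.0189, against 0.0508 without it). In NURF, *smarca5* rose by 0.77 (edgeR adjusted p = 0.0170) and the other 2 genes did not pass, with *smarca1* lowest at -0.33 (edgeR adjusted p = 0.281). Of 12 tested genes for factors that recruit NuRD, 1 rose and 1 fell, where 3.82% and 2.17% of genes tested did. *sall1b* rose by 0.88 (edgeR adjusted p = 0.0301), and *bcl11ab* fell by 0.50 (edgeR adjusted p = 0.0170). Of the 13 calls in these lists, 0 passed without wild-type pool 2 (edgeR adjusted p from 0.0598 to 0.198), 1 without mutant pool 1, 4 without wild-type pool 3, 9 without wild-type pool 1, 10 without mutant pool 3 and 11 without mutant pool 2. Over all genes, 870 were higher with all pools. That number was 155 without wild-type pool 2, 183 without mutant pool 1 and 311 without wild-type pool 3.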

How the data were processed

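RNA was measured by 50 bp RNA sequencing of 6 libraries. Per the study, all were multiplexed and run in the same 2 lanes, which gave 12 sets of counts. Per the labels and the study's methods, the authors used GSNAP for alignment to GRCz10 and HTSeq to count unique alignments, and deposited raw counts per gene and lane. The authors also deposited FPKM values, computed from these counts and exonic lengths. Their table of DESeq2 results (mean normalized count, log2 fold change, standard error, statistic, p-value and adjusted p-value) was not used. Whether counting used strand is not stated in the sources used here. Coordinates and sequences are not given, because no genome of this build was used.

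Counts of both lanes were summed, so n is 3 pools a genotype, and p-values measure the spread between pools. The test was the quasi-likelihood test of edgeR 4.0.16 (R 4.3.3) for genotype alone, after TMM scaling and its default low-count filter, and p-values were adjusted by Benjamini-Hochberg over the 22753 genes kept. CPM values are TMM-scaled, and FPKM values were computed from them with the exonic length deposited beside the authors' FPKM values. Members had at least 1455 counts in every library. The standard error is the log2 change divided by the square root of F. Ratios and shares were compared by exact permutation tests with scipy 1.17.1. Alternatives were DESeq2 1.42.0, RLE size factors, no filter, a replicate block, leaving out each pool, and shares without length. Same-numbered mutant and wild-type pools deviated together (correlations 0.42, 0.51 and 0.24, against -0.44 to 0.12 for pools of unlike number), so the numbers were taken to pair them. The labels do not say what a pool number marks, so the pairing and the block rest on these same data. The fit was tested on simulated counts.

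The members, the gene lists and the markers were chosen with earlier results of these data known. The text names all members, the other NuRD subunits, the 5 genes most like *rbbp4* except 1 that is not reported here, and, from the lists of other complexes and recruiting factors, genes past an adjusted p of 0.05 and the largest and smallest changes. From marker lists it names genes past that threshold, and *mpeg1.1*, chosen after its values were seen.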

Additional observations from a re-analysis of the deposited data

How the results depend on the processing

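Under DESeq2, RLE size factors, no filter on low counts and the replicate block, the same 4 members passed an adjusted p of 0.05, and with the replicate block, which pairs pools of the same number, the count stayed 4 and no call of a member changed. At an adjusted p of 0.01 and 1.5-fold, DESeq2 called 2 members, *rbbp4* and *chd4a*, instead of 1, and 1 of the other subunits instead of 0. Leaving out each pool in turn gave 0 to 1 members at that threshold. The member was *rbbp4* without mutant pool 2 or wild-type pool 1, and *chd4a* in place of *rbbp4* without mutant pool 3. It gave 1 to 4 members and 0 to 2 other subunits at an adjusted p of 0.05. Over all genes, calls at the first threshold numbered 269, but 1102 by DESeq2 and 1 to 219 in the fits that leave out a pool. The sign turned for *chd3* (range -0.14 to 0.25, with -0.01 without mutant pool 1, -0.14 without mutant pool 2 and -0.00 without wild-type pool 1), for *mbd2* (-0.065 without mutant pool 3, to 0.17) and for *chd5* (-0.16 to 0.25), all of them when a pool was left out. Fewer samples enter those fits, and no other cause was tested. All 63 alternatives for ratios and 112 for shares moved a value by less than 1 pooled SD. For most of them no other outcome was possible. Leaving out 1 of 3 pools cannot shift a difference that far, and pairing leaves the mean difference unchanged. Only the shares without length scaling could have moved further, and among them the genotypes ceased to overlap for *mta1*. With 3 pools a genotype, exact tests cannot go below p = 0.1.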
